A study of Mus musculus with 11 samples.

Results

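Described here are the 581 peaks of the Flag-Zmiz1 library, of 27054 peaks listed for the 5 factor libraries of the series. They are every peak that MACS, a peak caller that sets a precipitated library against an input library, listed for an anti-Flag chromatin immunoprecipitation (ChIP-seq) of the line labelled 8946 cells - Flag-Zmiz1/ L1601PDP, against the input of the same line. The 8946 cells are a mouse T-lymphoblastic leukaemia line. They had been infected with retroviruses that carry a tagged Zmiz1 (with an NGFR marker) and an activated Notch1 (with GFP), and cells with both markers were sorted, so Zmiz1 was expressed from a retrovirus in every library. Of the other 10 samples, the same line gave Rbpj, ICN1, H3K4me1, H3K4me3, H3K27me3, H3K27ac and input libraries, and a line labelled HA-Zmiz1/ DEGFDLNRDP, with another tag and another Notch1 construct, gave HA-Zmiz1, ICN1 and input libraries. There was 1 library per target and line, so no value below has a replicate, and each interval covers counting error only. An anti-Flag precipitation from cells without the tag was not analysed here.

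Zmiz1 is a coactivator with a PIAS-like (SP-RING) zinc finger. It binds no known DNA letters of its own and is thought to reach chromatin through partner proteins. Notch1, once cut, releases its intracellular part (ICN1), which joins the DNA-binding protein Rbpj at target genes such as Myc and Hes1 in T-cell leukaemia.

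The Flag-Zmiz1 library held 15.43 M tags after filtering and its input 36.4 M. The labels of the histone libraries were checked against gene lists. Of 20 housekeeping genes, 18 had a segment of the H3K4me3 library over a gene end, and so had 29 of 29 T-cell receptor and surface genes, against 1 of 12 genes of B cells and 2 of 12 of myeloid cells. The library labelled H3K27ac held an end of 0 of 20 housekeeping genes and of 27 of 30 developmental regulators, and the library labelled H3K27me3 of 18 of 20 and of 0 of 30. Acetylated H3K27 is known from active genes and trimethylated H3K27 from silenced developmental genes, so these libraries went against their labels, and each is called below by what it is labelled.

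For 7 RefSeq promoter windows (300 bases, 250 before to 50 after a gene's start), at 6 peaks, the DNA letters could be read. They are shown because 3 of the 7 hold the same 9 letters. The sequences below are the parts of the peaks that lie in those windows, on the strand of the gene, from RefSeq on GRCm38.p6, the same build as the mm10 of the peaks. Capitals mark TTCAGCACC and GGACAGC, here read on the opposite strand as GGTGCTGAA and GCTGTCC. These are the left and right parts of the RE1 element, the site known to be bound by REST, a repressor of neuronal genes.
Cyb5r4, chr9:87021779-87021895: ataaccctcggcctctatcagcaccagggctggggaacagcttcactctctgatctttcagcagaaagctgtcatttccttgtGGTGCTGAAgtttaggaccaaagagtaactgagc
Gm32659, chr2:136714289-136714378: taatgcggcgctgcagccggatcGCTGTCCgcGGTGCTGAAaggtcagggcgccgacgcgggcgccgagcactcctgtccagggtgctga
Unc13a, chr8:71671716-71671773: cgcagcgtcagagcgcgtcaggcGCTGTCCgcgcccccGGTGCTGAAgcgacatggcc
Neurod4, chr10:130280139-130280218: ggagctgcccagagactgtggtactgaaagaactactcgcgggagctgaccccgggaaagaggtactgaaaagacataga
Cpne4, chr9:104569491-104569548: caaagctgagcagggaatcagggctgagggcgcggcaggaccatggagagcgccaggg
The first 3 have capitals and the last 2 have none. The part at the sixth peak, in Tex33, had no capitals and is not shown, and Neurod4 has 2 windows at its peak.

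TTCAGCACC, searched on both strands over the whole windows, was in 3 of the 7 windows at peaks and in 122 of all 32851 windows (0.371%). GGACAGC was in 2 of 7 and in 6.56% of all windows. Both parts in the spacing of the full RE1 core, CAGCACC and GGACAGC with 2 bases between them, a pattern that overlaps both shorter ones, occurred in 1 of 7, the Gm32659 window, and in 7 of all windows. The other 6 windows with that full spacing, at Lhx3, Hrh3, Ttc9b, Osbp2, Fbll1 and Ogdhl, had no Flag-Zmiz1 peak nearer than 133 kb. The core that Rbpj is known to bind, TGGGAA, was in 3 of 7 and in 25.6% of all windows. In the 3 matching windows the capitals lay inside the called peaks, with their middles 29 bp before to 25 bp after the summit in genome coordinates. The letters were chosen after these windows had been read, as 1 of 7 patterns searched, so the counts are a description. The remaining 575 peaks met no window, and their letters were not read.

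Among these sites, Gm32659 is a predicted gene whose start lies inside the span of Snap25, which encodes a SNARE protein of synaptic vesicle release. That peak (rank 126 of the low-input peaks defined below) had a pileup, the number of overlapping fragments at the summit, of 15 and an 8.66-fold enrichment over local input. The peak at Unc13a, a synaptic vesicle priming factor, had its summit 3 bp from the gene's start, a pileup of 12 and a fold of 4.17 (rank 512). The peak at Cyb5r4, a cytochrome b5 reductase, lay 182 bp before the start with a pileup of 26 and a fold of 17.5 (rank 22). At Neurod4, a neuronal bHLH factor, the values were 13 and 8.51 (rank 159), and at Cpne4, a copine, 10 and 4.84 (rank 504). The matching sites thus ran from the strong to the weak end of the list.

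To mark pile-ups that the input shares, the input background at each summit was recovered from pileup and fold enrichment and expressed as a multiple of the library's average background. Of the 581 peaks, 42 (7.23%, exact Clopper-Pearson 95% interval 5.26 to 9.65) had an input of 10 or more times the mean, and are called high-input peaks. The nearest values on either side of this limit were 8.86 and 30.1 times, with no peak between them. The 539 low-input peaks had a median pileup of 11 (6 to 68), a median fold of 7.40 (3.85 to 46.5) and a median width of 77 bp. At 223 of them the input stood at the lowest value found, 1.01 times the mean, where MACS falls back on a genome-wide value. The high-input peaks had pileups of 48 to 116 and folds of 1.97 to 4.01. Pileups of both classes overlapped between 48 and 68, but folds met only near 4.

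**Figure D1:**
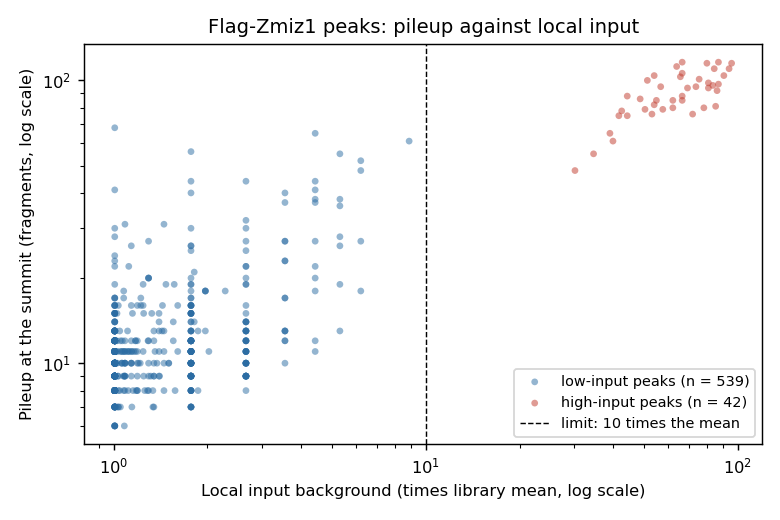
Pileup at the summit against local input background, both on log axes, for the 539 low-input (blue) and 42 high-input (red) Flag-Zmiz1 peaks, 1 point per peak. The 2 classes are separated by a gap from 8.86 to 30.1 times the mean around the limit of 10 (dashed line), and many low-input peaks stack at 1.01 times.

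The high-input peaks fell in 11 places, of which 4 held 35 of the 42. On chromosome 17, from 39843205 to 39848811, 11 peaks had inputs of 41.6 to 86.8 times the mean. The summits of 4 of them lay in the span of Rn18s-rs5, a pseudogene of the 18S ribosomal RNA, 1 lay in the lncRNA AY036118, and 6 lay in neither. On chromosome 14, from 19415713 to 19419413, 9 peaks lay 114 kb or more from Gm2244, with inputs of 34.5 to 95.7 times. On chromosome 9, from 3000029 to 3035885 at the chromosome's first listed bases, 8 peaks lay 299 kb or more from Alkbh8, a tRNA methyltransferase gene. On chromosome 2, from 98662248 to 98667295, 7 peaks lay 1031 kb or more from Lrrc4c. All 4 clusters lay over 100 kb from the nearest coding gene.

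The other 7 places held 1 peak each. They lay inside the spans of Aida and E030030I06Rik, 61.0 kb from Axin2, 21.2 kb from Ly6c2, 29.5 kb from Rpusd4, 137 kb from Rab10 and 282 kb from Pex2. Of the 42 high-input peaks, 41 overlapped an ICN1 peak of the Flag line, 34 an Rbpj peak and 25 an HA-Zmiz1 peak. Segments of the library labelled H3K27ac held 42 of them and those of H3K4me3 26. The library labelled H3K27me3 held 15 and H3K4me1 9. The Flag-line lists share 1 input library. Counts below leave the 42 out unless they say otherwise.

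The strongest low-input peak, by the authors' −log10 p (120), lay inside Unc5a, a netrin receptor gene of axon guidance, on chromosome 13 from 54970981 to 54971110. It had a pileup of 68 over an input at the lowest value, a 46.5-fold enrichment. The second, 0.138 kb from Scrt1, which encodes a neuronal zinc finger repressor (chromosome 15, 76522183 to 76522351), had a pileup of 56 and a fold of 30.8. The third, inside Npas4, an activity-dependent transcription factor of neurons (chromosome 19, 4989075 to 4989287), had a pileup of 65 and a fold of 21.2. The Unc5a peak overlapped no Rbpj peak, whereas an Rbpj peak of 10.5-fold lay at Scrt1 and one of 8.02-fold at Npas4.

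The next 7 peaks had folds of 11.8 to 28.3. The nearest genes were Taf1b, a subunit of an RNA polymerase I factor (73.4 kb away, fold 28.3), Garnl3 (24.4), Phf21b, a PHD finger gene (15.8), and Epha8, an ephrin receptor (22.2). Plppr2 (19.8), Kcnk9, a potassium leak channel (11.8), and Trappc9, a vesicle trafficking gene (13.4), followed. Kcnk9 and Trappc9 are close together on chromosome 15, and the Kcnk9 peak carried the highest input of the low-input class, 8.86 times the mean.

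Ranks 11 to 20 included sites at genes of receptors and signalling. The peak 0.308 kb from an end of Cacng2, an auxiliary subunit of AMPA receptors, had a fold of 14.4. The peak 0.272 kb from an end of Glra1, a glycine receptor subunit, had a fold of 18.9, and the peak 1.58 kb from Axin2, a Wnt pathway scaffold, 19.6. Celsr3, an adhesion receptor of neurons, held a peak of 13.5-fold. Other nearest genes were Vstm2l (15.2), Erich1 (14.1), Stox2 (16.8) and Gm52481 on chromosome Y (12.4). A peak 1017 kb from Immp2l, in the lncRNA Gm33340 (21.0), and another 468 kb from Tshz1 (20.9) lay far from coding genes. Of the 20 strongest, 10 lay inside a gene span and 4 over 50 kb from any.

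**Figure D2:**
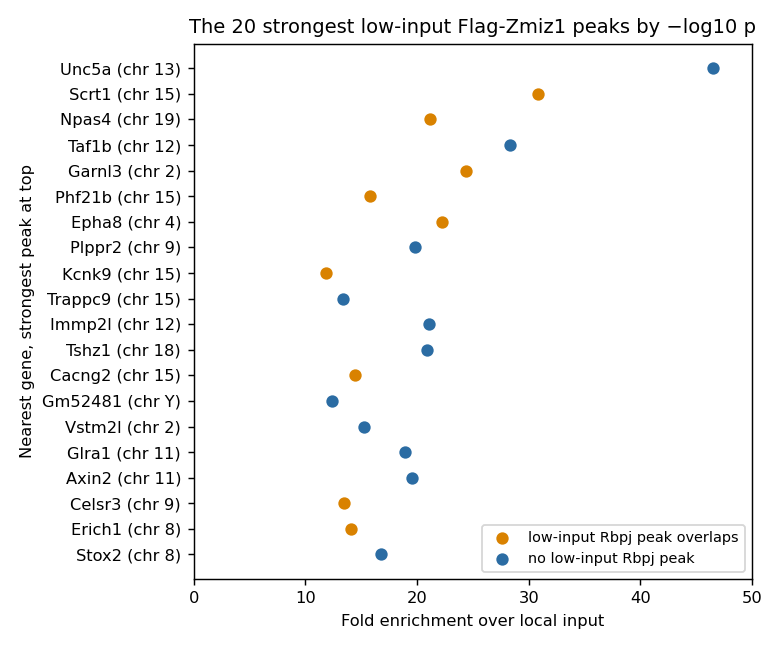
Fold enrichment over local input (x axis) of the 20 strongest low-input Flag-Zmiz1 peaks, ordered from the top by −log10 p and named by nearest gene and chromosome. Of the 20, 9 overlap a low-input Rbpj peak (orange) and 11 do not (blue), and Unc5a stands highest at 46.5.

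Positions were taken against the spans of 21883 protein-coding genes. Summits lay inside a span for 226 of 539 low-input peaks (41.9%, 37.7 to 46.2), against 38.2% of all bases. They lay within 1 kb of a gene end for 30 (5.57%, 3.79 to 7.85), against 2.93% of bases, and over 100 kb from any gene for 99 (18.4%, 15.2 to 21.9), against 29.5% of bases. The interval of the inside share spans the share of bases, and those of the other 2 shares do not. Assembly gaps and bases that reads cannot be placed on were not taken out of the share of bases. Non-coding gene spans held 55 summits, 50 of them in lncRNA genes. For non-coding spans the share of bases was not computed, so these counts have no background share beside them.

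The 221 genes that hold a low-input summit had a median length of 104 kb, against 17.2 kb for all coding genes. Longer spans offer more bases for a summit to fall in, and length was not adjusted for. Camta1, a calcium-responsive transcription activator, and Sugct each held 3 summits, and the median length of the pair was 820 kb. The 3 in Camta1 had folds of 9.44, 6.16 and 6.68, and those in Sugct 10.7, 7.64 and 7.28. In each gene 2 of the 3 summits lay within 1 kb of each other, as did 12 low-input summits in all. The peaks farthest from any coding gene were 1989 kb from Pik3c3, 1701 kb from Ctnna2, 1535 kb from Cdh11, 1285 kb from Dsel and 1172 kb from Zeb2, with folds of 4.72 to 8.09.

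The 30 gene-end peaks ranked from 2 to 529 by strength. After Scrt1, Cacng2, Glra1 and Cyb5r4, the strongest lay at Rtbdn (12.2), Iqsec3, a synaptic exchange factor (14.1), Cacng3, of the same family as Cacng2 (13.0), Xkr7 (10.4), Dvl1, a Wnt pathway gene (8.19), and Cd300e, a myeloid surface receptor (8.80). Weaker ones lay at Snap25, Neurod4 and Chgb, a chromogranin of secretory granules (6.604). Gabrd, a GABA receptor subunit (5.95), Grik5, a kainate receptor subunit (4.402), Mapk8ip2 (4.79), Aplp1 (4.82) and Unc13a stood at the low end. Further gene-end peaks, at Yif1a, Tsga10, Krt86, Vmn2r105, Cox17, Dnajb13, Agtr1a, Ube2e1, Pde2a, BC053393, Slc36a2 and Acot5, had folds of 5.87 to 7.40.

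Low-input Rbpj peaks met 51 of the 539 low-input Flag-Zmiz1 peaks (9.46%, 7.13 to 12.3). The share of bases that Rbpj peaks cover was not computed, so the Rbpj overlap counts have no background share beside them. Of the 30 gene-end peaks, 14 overlapped a low-input Rbpj peak (46.7%, 28.3 to 65.7), against 37 of the other 509 (7.27%, 5.17 to 9.88). Rbpj peaks are themselves dense there: 44.4% lay within 1 kb of a gene end, against 2.93% of bases. This was not adjusted for. Segments of the library labelled H3K27ac, which held developmental regulators, covered 10 of the 30, those of H3K4me3 8, of H3K4me1 6 and of the library labelled H3K27me3 4. Over all 539 the shares were 9.09% for the library labelled H3K27ac, 5.19% for H3K4me3, 15.4% for H3K4me1 and 9.83% for the library labelled H3K27me3. These segments cover 5.67%, 2.45%, 7.27% and 4.85% of the bases. No histone segment was found at 404 peaks (74.95%, 71.1 to 78.6).

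Rbpj overlap differed along the list. It was seen at 21 of the 50 strongest low-input peaks (42.0%, 28.2 to 56.8), at 10 of ranks 51 to 100 (20%, 10.0 to 33.7) and at 20 of the remaining 439 (4.56%, 2.80 to 6.95). The intervals of the first and last groups do not overlap. These ranges of rank were chosen after the overlaps had been seen, so they carry no test. The 50 strongest were also wider (median 170 bp, against 71 bp above rank 100). More of them lay within 1 kb of a gene end (16%, against 4.56% above rank 100). Width and position were not adjusted for. The 51 sites with Rbpj had a median Rbpj fold of 6.2004 (3.88 to 11.5), against 6.47 over all low-input Rbpj peaks. Their local input had a median of 2.66 times the mean, against 1.07 at the 488 sites without Rbpj. Both libraries were called against the same input, and the part of the input in the overlap was not tested.

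The 15 strongest sites with Rbpj lay at Scrt1, Npas4, Garnl3, Phf21b, Epha8, Kcnk9, Cacng2, Celsr3, Erich1, Cyb5r4, Xkr6, Rtbdn, L1cam, Igsf21 and Lypd5. Rbpj folds there ran from 4.203 at Lypd5 to 10.8 at Cyb5r4. L1cam, a neural cell adhesion gene, held 1 of the 3 peaks of chromosome X (fold 14.6, Rbpj fold 5.38). The highest Rbpj fold at any of the 51 sites was 11.5, at Cacng3. Among the 50 strongest, Rbpj was seen at 7 of 8 gene-end peaks and at 14 of 42 others.

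HA-Zmiz1 came from the other line, with another tag, Notch1 construct and input, and these cannot be told apart here. The share of bases that HA-Zmiz1 peaks cover was not computed, so the overlap counts have no background share beside them. Low-input HA-Zmiz1 peaks, 4952 in all, met 2 of the 539 low-input Flag-Zmiz1 peaks (0.371%, 0.0450 to 1.33). One, inside Erich1 on chromosome 8 from 14072653 to 14072821, had folds of 14.1 (Flag-Zmiz1), 7.23 (HA-Zmiz1) and 8.17 (Rbpj). The other, 14.6 kb from Fem1a, a substrate receptor of a ubiquitin ligase, on chromosome 17 from 56242154 to 56242265, had 9.78, 8.55 and 6.97. ICN1 of either line met 0 of the 539 (exact interval up to 0.682%). The ICN1 lists are short, with 29 low-input peaks in the Flag line and 382 in the HA line, which limits how many overlaps there could be.

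**Figure D3:**
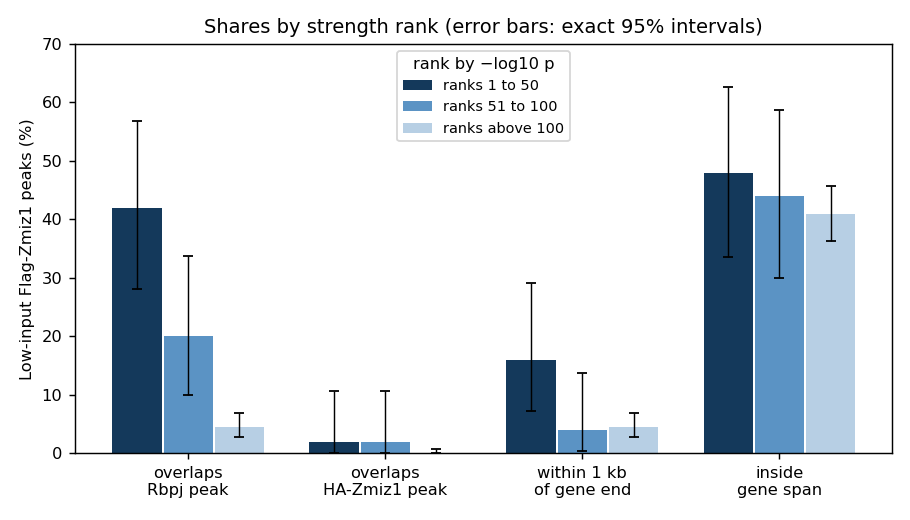
Share of low-input Flag-Zmiz1 peaks (y axis, percent) that overlap a low-input Rbpj or HA-Zmiz1 peak, lie within 1 kb of a gene end or lie inside a gene span, for ranks 1 to 50, 51 to 100 and above 100 by −log10 p, with exact 95% intervals as error bars. The Rbpj share goes from 42.0% to 20% and 4.56%, and that inside genes from 48% to 44.0% and 41.0%.

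Gene positions were compared with those of the low-input HA-Zmiz1 and Rbpj peaks by Fisher's exact test (two-sided), adjusted by Benjamini-Hochberg over 4 comparisons. It takes peaks as independent and compares lists of 1 library each, so p covers no spread between libraries. The HA-Zmiz1 list also differs in line, Notch1 construct and input. Within 1 kb of a gene end lay 5.57% of Flag-Zmiz1, 18.7% of HA-Zmiz1 (adjusted p = 3.46e-17, exact test) and 44.4% of Rbpj peaks (adjusted p = 3.6e-89, exact test). The lists differ in length, and with the 539 strongest of each the HA-Zmiz1 share was 5.75%, a difference of −0.186 percentage points (adjusted p = 1.0, exact test), so the difference from HA-Zmiz1 was not seen among the strongest peaks. The Rbpj share then was 51.6% (adjusted p = 1.77e-68, exact test). Inside gene spans lay 51.2% of HA-Zmiz1 (adjusted p = 5.24e-05, exact test) and 56.4% of Rbpj peaks (adjusted p = 4.32e-11, exact test), against 41.9% of Flag-Zmiz1. With the strongest of each list the inside shares were 48.4% (adjusted p = 0.0499, exact test) and 51.8% (adjusted p = 0.00298, exact test).

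Gene lists were read at 50 kb, the distance within which 4.01% of all coding genes had a low-input peak (4.06% with the high-input peaks counted too). Of the genes of the Notch pathway, Myc, the leukaemia oncogene, had a peak 41.4 kb away on chromosome 15 (pileup 10, fold 6.40, rank 383). Zmiz1, Notch1, Rbpj, Hes1, Notch3 and Dtx1 had none, and their nearest peaks were 344 to 1941 kb away. In the list of Notch targets, 3 of 26 genes had a peak: Myc, Cd44, an adhesion receptor (9.14 kb, fold 8.32), and Shq1, which held one (5.73). Of 16 genes for Zmiz and PIAS proteins and the Notch complex, 3 had a peak: Pias3, a SUMO ligase of the PIAS family (30.03 kb, fold 11.4), Maml2, a Mastermind coactivator (inside, 7.42), and Crebbp, an acetyltransferase (3.43 kb, 7.98). Counts this small have wide intervals (2.45 to 30.2% for the targets, 4.05 to 45.6% for the complex genes). The first interval includes the 4.01% of all coding genes, and the second starts just above it. The complex genes had a median length of 96.1 kb, against 17.2 kb for all coding genes, and length was not adjusted for.

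Among T-cell receptor and surface genes, 3 of 29 had a peak (10.3%, 2.19 to 27.4). Ptprc, which encodes CD45, held one of pileup 16 and fold 10.7 (rank 71), and Cd5 and Cd6, neighbours on chromosome 19, shared one of 7.68-fold. T-lineage regulators had 0 of 28 (interval up to 12.3%) and housekeeping genes 0 of 20 (up to 16.8%). The lists for B cells and for myeloid cells had 0 of 12 each (up to 26.5%). The developmental regulators had 3 of 30 (10.0%, 2.11 to 26.5). These were Sox9 (19.2 kb, fold 6.07), Nkx2-5 (13.6 kb, 6.74) and Lhx2 (48.4 kb, 9.61, with an Rbpj fold of 5.45). Each of these intervals, at 50 kb, includes the 4.01% of all coding genes. Within 5 kb the developmental regulators had 0 of 30, where 1.34% of all genes had one.

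Long neural adhesion and synaptic genes had the highest share of the lists, 10 of 50 (20%, 10.0 to 33.7), against 4.01% of all coding genes. The median length of the list was 1142 kb, against 17.2 kb for all coding genes, and length was not adjusted for. The 10 included Csmd3, Ptprd, Dlg2, Macrod2, Kcnip4, Cdh12, Cdh18, Fgf14 and Rbfox1, with folds of 4.84 to 9.44 and ranks from 111 on. Of these, Csmd3, Cdh12 and Cdh18 lie on chromosome 15, where peaks were densest. Fgf14, an intracellular regulator of sodium channels, had the highest (9.44), and Rbfox1, a neuronal splicing factor, the lowest (4.84). With the 100 strongest low-input peaks, which lay within 50 kb of 1.01% of all genes, the list had 0 of 50. The interval of that count (up to 7.11%) includes 1.01%. The members with a peak came from ranks above 100, which hold 439 of the 539 low-input peaks.

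Classes of genes formed by symbol gave shares from 0% to 8.51%. Olfactory receptor genes had a peak within 50 kb at 10 of 1110 (0.901%, 0.433 to 1.65) and vomeronasal receptor genes at 6 of 353 (1.70%, 0.626 to 3.66). Their median lengths were 0.95 and 0.96 kb, against 17.2 kb for all coding genes, and length was not adjusted for. Cytochrome P450 genes had 0 of 99, kallikrein and serpin genes 0 of 90 and cytosolic ribosomal protein genes 1 of 91, at Rps18. Zinc finger Zfp genes (19 of 397, 4.79%), histone genes (4 of 89, 4.49%), protocadherin and cadherin genes (4 of 92, 4.35%) and solute carriers (21 of 389, 5.399%) were near the 4.01% of all genes. The class with potassium channel symbols had 8 of 94 (8.51%, 3.75 to 16.1), whose interval includes that share. These were Kcne4, Kcnip4, Kcnn4, Kcnip1, Kcnh4, Kcnma1, Kcnk9 and Kcnh8, and Kcnip4 is also in the long neural list. Members of a class often lie side by side and share a peak.

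Low-input peaks lay on every chromosome, most densely on chromosome 15. That chromosome had 43, or 0.414 per Mb (exact Poisson 95% interval 0.300 to 0.558), against 0.211 (0.192 to 0.230) over the other autosomes together, and 5 of the 20 strongest. The 43 lay in 43 places more than 50 kb apart. Their median fold was 6.50 against 7.42 elsewhere, and their median pileup 11 in both. Chromosome 15 carried 7.98% of low-input Flag-Zmiz1, 6.02% of HA-Zmiz1 and 5.87% of Rbpj peaks on 3.84% of the span. Chromosome X had 3 peaks, 0.0176 per Mb (0.0036 to 0.0514), and chromosome Y 1.

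Control reads were also high on chromosome 15 and low on X. In H3K4me1 segments the control library of the histone lists had 32.8 reads per kb on chromosome 15, 1.38 times the median autosome, and 13.3 on chromosome X, 0.563 times. Chromosome Y, with 3 such segments, had 31.8 reads per kb at 0.011 peaks per Mb. On the other autosomes the control stood between 22.8 and 24.1 reads per kb, while the peak density went from 0.138 per Mb on chromosome 3 to 0.275 on chromosome 7. Their part in the peak density was not tested. Without chromosome 15 the Rbpj share of the 50 strongest was 16 of 43 (37.2%, 23.0 to 53.3), and on it 5 of 7.

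**Figure D4:**
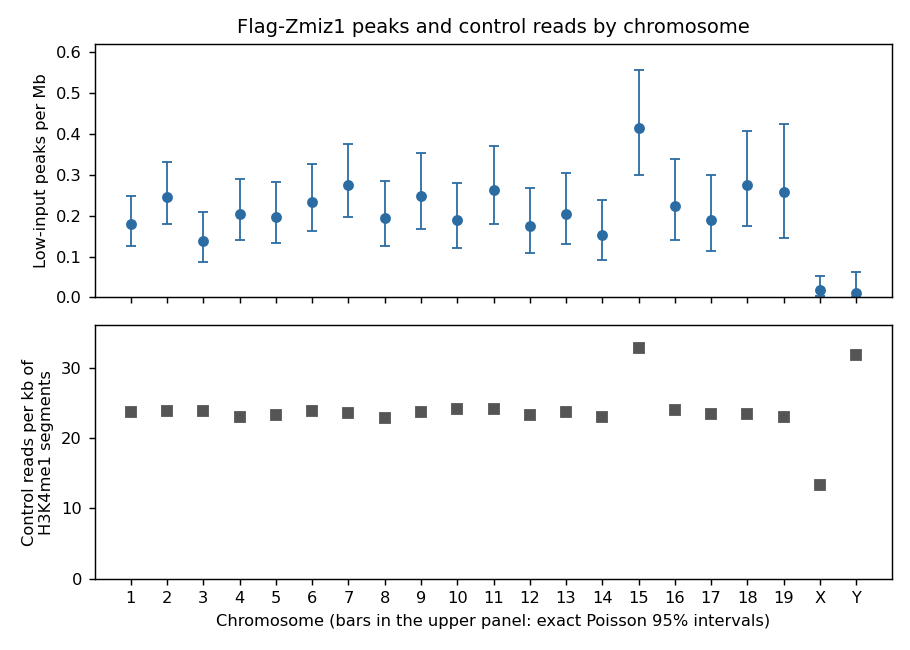
Low-input Flag-Zmiz1 peaks per Mb with exact Poisson 95% intervals (upper panel) and control reads per kb of H3K4me1 segments (lower panel) for each chromosome. Chromosome 15 is highest in both, at 0.414 peaks and 32.8 reads, X is low in both, at 0.0176 and 13.3, and Y has few peaks (0.011 per Mb) at 31.8 reads per kb.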

How the data were processed

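The authors called peaks with MACS (version 2.0.10.20120913), setting each line's libraries against that line's own input. Per the file headers, duplicates were reduced to 1 tag at a position, p had to reach 1e-05, and background was read in windows of 1000 and of 10000 bp. Headers of the HA-line lists name a pooled read set. The build was mm10, and Bowtie 0.12.7, SICER 1.1 and HOMER 4.2 were also used, per the submitters' processing notes. The deposited pileup is a signal, the fold enrichment is a ratio over local input, and the −log10 p was taken from the deposited BED lists. Histone segments carry the authors' fold over control and a control read count. The headers give a fragment length of 58 bp at a tag length of 52 bp for the Flag-Zmiz1 library, which bears on pileup and width.

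Local input was computed as (pileup + 1) / fold − 1, over the mean background (fragment length times tags over effective genome size). Gene spans (no strand or exons) and promoter windows (none on chromosome 18) came from RefSeq GRCm38.p6. Distances run from the summit, and overlaps need 1 bp. The 9 gene lists hold 219 genes, all matched. Work was done in Python 3.11.15 with SciPy 1.17.1, and interval overlap and nearest-gene steps were tested on simulated data.

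The members, the 9 lists, the limit of 10 times and the tests were chosen with earlier results of these data known. Named genes are those nearest the 20 strongest low-input peaks, those with a summit within 1 kb of an end, list genes within 50 kb, the gene nearest each high-input place, those at HA-Zmiz1 or Rbpj overlaps (15 strongest), genes with 3 or more summits, the 5 farthest peaks, and 7 Notch pathway genes. A gene within this rule is not reported here. The letter patterns, ranks, chromosome 15 values, the check of histone labels and the genes of the promoter windows outside this rule were chosen after their values were seen. Alternatives covered the input limit, the p limit, overlap rules, list windows and list lengths. Most peak sequences were not used here, as no genome was at hand.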

Additional observations from a re-analysis of the deposited data

How the results depend on the processing

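Of 86 alternatives over 22 results, 80 kept the result. This meant the same direction and side of the threshold, a value within the main interval, or a count within a set ratio. The limit of 20 times could not change which Flag-Zmiz1 peaks were counted, as none had an input between 8.86 and 30.1 times. Small lists have wide intervals, so a share could move far and still count as kept. Notch targets went from 11.5% to 3.85% at 5 kb and to 23.1% at 200 kb. The 6 exceptions follow. At a p limit of 1e-10, 315 low-input peaks were left of 539. With all 581 peaks kept, 23.4% lay over 100 kb from any gene, 4.65% overlapped HA-Zmiz1 and 14.6% overlapped Rbpj, because the high-input peaks enter these counts. A window of 5 kb left 0.0% of developmental regulators with a peak. With each list limited to its 539 strongest peaks, the gene-end difference from HA-Zmiz1 was −0.186 percentage points (exact test, adjusted p = 1.0). The fall of Rbpj overlap along the list and the promoter letters were given no alternative beyond those above. No paired analysis was possible because each target and line had 1 library. The lowest pileup listed was 6, so sites of lower coverage are absent, and 98 low-input peaks had the smallest width, 58 bp. The part of depth in the length of the list was not tested. The HA-Zmiz1 library had 15.32 M tags and 4984 peaks, against 15.43 M and 581 for Flag-Zmiz1.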

Other observations

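The peak of rank 12, 468 kb from Tshz1, a zinc finger gene of development, on chromosome 18, was 1 of 4 low-input peaks within 1 kb. Their folds were 20.9 (rank 12), 16.9 (rank 25), 11.5 (rank 62) and 10.8 (rank 75), and none of the 4 overlapped an Rbpj peak. A second peak named for Glra1 lay 203 kb from it, with a fold of 13.0 (rank 39). Sites at Lin28a, an RNA-binding regulator of let-7 (1.64 kb, fold 13.6), Rbfox3, which encodes the neuronal marker NeuN (10.4), and Gprin1 (1.03 kb, 13.0) were also among the 50 strongest, and none of these 3 overlapped a low-input Rbpj peak. These genes were picked after their values were seen.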
